A study of Mus musculus with 24 samples.

Results

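Transcripts of 9 genes of cellular senescence and the p53 pathway were followed in mouse lung across age, allergen challenge and steroid treatment. Every gene of the table of normalized expression whose symbol was Cdkn1a, Cdkn2a, Cdkn2b, Gdf15, Glb1, Lmnb1, Trp53, Mdm2 or Ccng1 was taken, which gave 9 of 23891 genes. RNA-Seq had been made from the left lung lobe of 24 C57BL/6 mice, and levels are CPM, read counts per gene scaled to a fixed total per sample. The 5 naïve adult mice were 20 wk old and the 5 naïve aged mice 80 wk old, and both groups carried the treatment label saline. The 7 HDM mice, 80 wk old, had been sensitized and challenged through the nose with 50 µg of house-dust mite (HDM) extract, an aeroallergen used to model asthma. The 7 HDM + Dex mice, also 80 wk old, had the same HDM exposure together with intraperitoneal dexamethasone (Dex), a corticosteroid, at 4 mg/kg every 72 h of the challenge period. Lung collection was 24 h after the final exposure. HDM and Dex were compared in aged lung, with the naïve aged mice as the saline group.

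Senescent cells have left the cell cycle for good while staying alive, and they accumulate in ageing tissue. Both arms of the programme run through inhibitors of cyclin-dependent kinases (CDK) that keep the retinoblastoma protein active. The p53 protein induces Cdkn1a (p21), the neighbouring genes Cdkn2a (p16Ink4a) and Cdkn2b (p15Ink4b) act on the cyclin D kinases, and p19Arf, also read from Cdkn2a, frees p53 from its ubiquitin ligase Mdm2. A larger lysosomal compartment, measured as β-galactosidase activity (Glb1), loss of lamin B1 (Lmnb1) from the nuclear envelope and a secreted set of cytokines and proteases are the usual signs of such cells.

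The stretches before the start sites of 3 CDK inhibitor genes are shown, because 2 of them, Cdkn1a and Cdkn2a, passed a test on the deposited values and the third is next to Cdkn2a. They were taken from RefSeq on GRCm38.p6, read 5′ to 3′ on the gene's own strand, and stop before the annotated exon. Capitals mark the GC box GGGCGG in the first and matches to the p53 response decamer in the last. Cdkn2a lies on the minus strand at chr4:89274471-89294653 with 2 annotated transcripts, and Cdkn2b, on the same strand at chr4:89306299-89311039, is 11645 bp away. The distal start of Cdkn2a, from which p19Arf is read, is followed by the proximal start of p16Ink4a, by Cdkn2b and by the first start of Cdkn1a (plus strand, chr17:29090976-29100727).
Cdkn2a distal start, chr4:89294654-89294869: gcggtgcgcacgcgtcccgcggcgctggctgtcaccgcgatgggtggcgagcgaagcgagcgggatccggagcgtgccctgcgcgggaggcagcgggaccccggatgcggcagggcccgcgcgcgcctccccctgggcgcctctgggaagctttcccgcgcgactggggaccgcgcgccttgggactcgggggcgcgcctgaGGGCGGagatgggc
Cdkn2a proximal start, chr4:89282193-89282442: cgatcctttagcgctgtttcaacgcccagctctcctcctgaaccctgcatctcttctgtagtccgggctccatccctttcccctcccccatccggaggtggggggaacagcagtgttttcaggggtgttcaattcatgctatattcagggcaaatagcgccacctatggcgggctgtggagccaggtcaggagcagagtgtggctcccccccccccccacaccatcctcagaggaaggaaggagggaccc
Cdkn2b, chr4:89311040-89311282: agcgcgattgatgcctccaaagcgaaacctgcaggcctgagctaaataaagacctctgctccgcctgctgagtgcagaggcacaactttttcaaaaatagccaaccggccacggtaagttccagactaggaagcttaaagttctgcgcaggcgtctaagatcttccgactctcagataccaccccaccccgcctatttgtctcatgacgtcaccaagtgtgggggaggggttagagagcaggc
Cdkn1a first start, chr17:29090729-29090975: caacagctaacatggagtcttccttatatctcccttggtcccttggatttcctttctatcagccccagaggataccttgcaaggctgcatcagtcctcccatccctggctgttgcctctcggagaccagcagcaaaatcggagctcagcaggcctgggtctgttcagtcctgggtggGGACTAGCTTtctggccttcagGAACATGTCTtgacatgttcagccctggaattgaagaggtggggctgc

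In the 250 bases before the start, the distal Cdkn2a window held 40 CpG dinucleotides and the proximal one 7, against a median of 6 over 32851 RefSeq promoters. Cdkn2b had 12 and the first start of Cdkn1a 2. GGGCGG, searched on both strands, stood 2 times in the distal Cdkn2a window, 1 of them within the stretch printed, and was not found in the proximal Cdkn2a, Cdkn2b or first Cdkn1a windows. The second start of Cdkn1a, not printed, differed from the first, with 19 CpG, GGGCGG 2 times and no p53 decamer. GGGCGG was found in 32.7% of all promoters. The p53 decamer was found before 4 of the 11 start sites of the 8 genes whose promoters were used, and in 7.13% of all promoters. The first start of Cdkn1a had it 2 times, as GGACTAGCTT at bases 73 to 64 before the start and as GAACATGTCT at bases 51 to 42. Mdm2 had GAACTTGCCT at bases 186 to 177, Ccng1 had GGGCAAGCCT at bases 185 to 176 and Trp53 itself had GGACTTGCCC at bases 75 to 66. These matches describe sequence and not binding.

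Depth, estimated from the spacing of the lowest values, ran from 10.1 to 33.1 M reads per sample, so that 3 reads corresponded to 0.0906 to 0.299 CPM. Non-coding 7SL RNA (Rn7s1 and Rn7s2) took 9.92% to 42.0% of the reads, with a median of 28.1% in HDM samples, 26.8% in HDM + Dex and 10.9% in naïve aged ones, and since CPM add up to a fixed total, a larger share leaves less for the other genes. The median log2 fold change over the 17744 genes tested was -0.23 for HDM vs. saline, -0.19 for HDM + Dex vs. saline, 0.19 for aged vs. adult and 0.03 for HDM + Dex vs. HDM. Changes are therefore also given after median-of-ratios rescaling, which brought these medians to between -0.01 and 0.00. Judged by Xist and Ddx3y, all 5 naïve adult mice were female, and the naïve aged, HDM and HDM + Dex groups held 2, 2 and 4 females. All 5 male HDM and all 3 male HDM + Dex samples were above 25% 7SL RNA. Where samples above 25% are left out below, only females therefore remain in these 2 groups. Summed CPM of 6 macrophage markers ran from 226 to 328 in naïve aged and from 462 to 3336 in HDM lungs, and that of 6 heart muscle markers from 544 to 1027 and from 20.6 to 413. In bulk lung, fewer cells of a type and less RNA per cell cannot be told apart.

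Per kilobase of exon and over all 24 samples, Ccng1 was the most abundant of the 9 transcripts at 20.0 ± 5.75 CPM per kb (SD). Lmnb1 followed at 16.9 ± 6.72, Mdm2 at 14.1 ± 2.15, Cdkn1a at 11.9 ± 5.19 and Cdkn2b at 10.6 ± 2.61 CPM per kb. Neighbours among these 5 did not differ beyond their spread. Trp53, at 3.46 ± 0.835, and Glb1, at 2.56 ± 0.712 CPM per kb, were lower, and Gdf15 at 0.736 ± 0.666 and Cdkn2a at 0.719 ± 0.551 CPM per kb were the lowest. Cdkn2a and Cdkn2b, next to each other on the chromosome, stood far apart in level. Relative to its mean, Mdm2 varied least of the 9 over the samples.

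**Figure D1:**
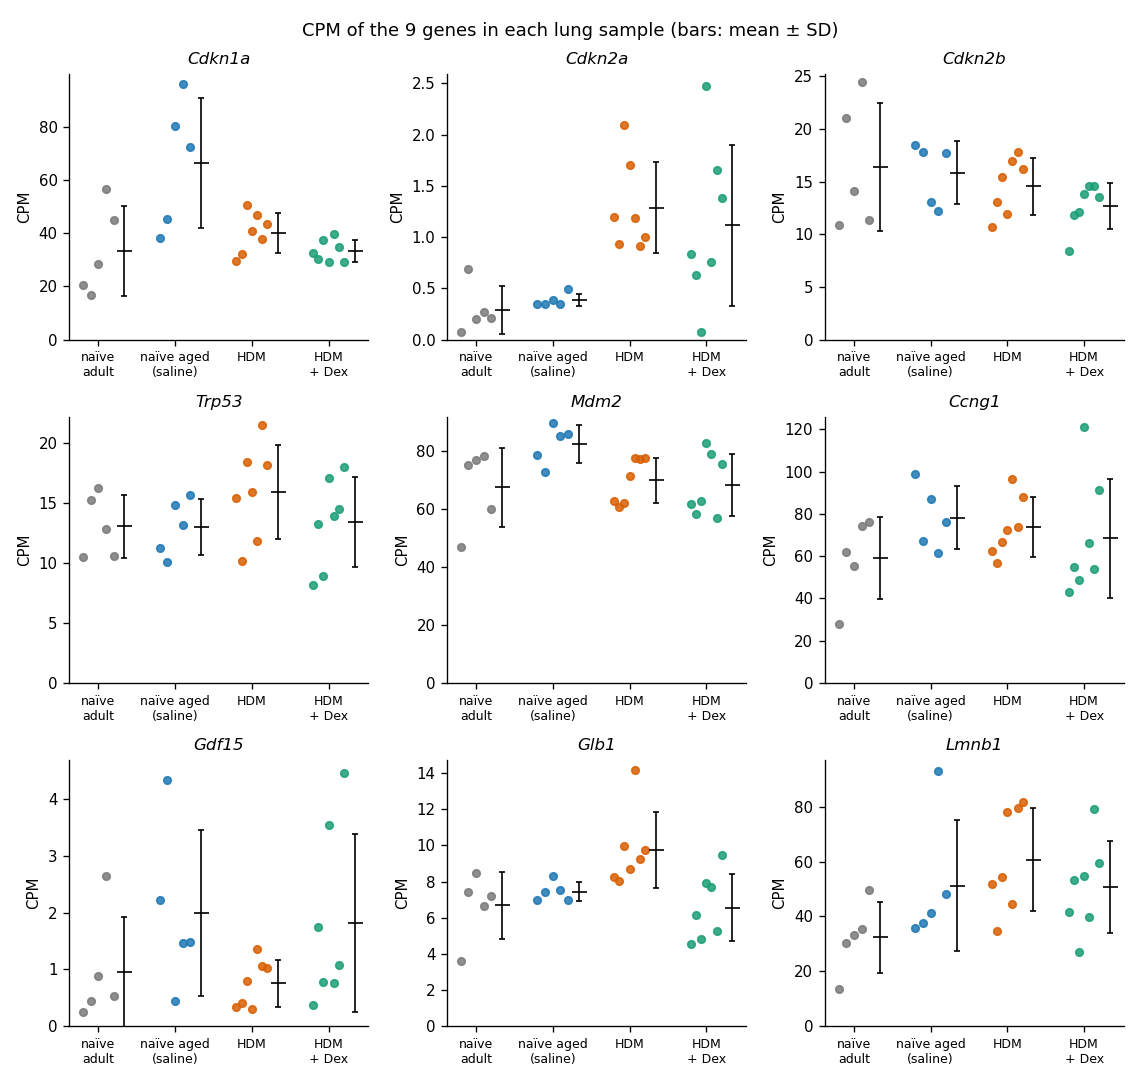
CPM of the 9 genes (vertical axes, each from 0) in each lung sample, by group, with the group mean ± SD as bars. Cdkn2a lies at 0.912 CPM or more in every HDM sample and at 0.495 CPM or less in every naïve aged sample, while Cdkn1a is widest in the naïve aged group, from 38.1 to 95.9 CPM.

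Cdkn1a encodes p21, the CDK inhibitor that p53 induces, and it was the 1 gene of the 8 tested by limma that passed an adjusted p of 0.05 in HDM vs. saline. It passed as lower, where 21.2% of all genes tested were lower and 4.04% higher. Naïve aged lungs held 38.1, 45.2, 80.3, 95.9 and 72.2 CPM, a mean of 66.3 ± 24.2 CPM (SD, n = 5). In HDM lungs the lowest, median and highest values were 29.5, 40.7 and 50.7 CPM, with a mean of 40.1 ± 7.60 CPM (n = 7). The 3 highest naïve aged lungs exceeded every HDM lung, and the other 2 fell within the HDM range. The log2 fold change was -0.65 ± 0.19 (SE, limma, adjusted p = 0.0157), with HDM lower in 29 of 35 pairs of samples. After rescaling it was -0.40 (adjusted p = 0.175), and without naïve aged replicate 3 or replicate 4 it was -0.56 or -0.50, with an adjusted p of 0.0573 or 0.0582. The call was also lost, at a fold change of about the same size, with the 7SL share as a covariate (-0.67, adjusted p = 0.0762) and without the samples above 25% 7SL RNA (-0.62, adjusted p = 0.244). That omission left 2 HDM lungs, both female.

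With Dex added, Cdkn1a was at its lowest mean and smallest SD among aged lungs. The HDM + Dex samples ran from 29.2 over a median of 32.7 to 39.8 CPM, a mean of 33.4 ± 4.14 CPM (n = 7). Against saline this was a log2 fold change of -0.90 ± 0.19 (limma, adjusted p = 0.0202), lower in 34 of 35 pairs. Cdkn1a was the 1 member of 8 to pass in this comparison, where 1.44% of all genes were lower. It uses the same naïve aged samples as HDM vs. saline. After rescaling the value was -0.69 (adjusted p = 0.105), and the adjusted p was 0.0754, 0.0643 or 0.0609 without naïve aged replicate 3, 4 or 5 and 0.0538 without HDM + Dex replicate 2. The fold change itself lay between -1.07 and -0.75 whichever 1 library was left out. HDM + Dex vs. HDM itself gave -0.25 ± 0.17 (adjusted p = 0.590), and none of the 8 members passed there by limma (1, Glb1, at an unadjusted p under 0.05), where 0.964% of all genes did.

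In naïve adult lungs Cdkn1a was at 20.4, 16.7, 28.3, 56.7 and 44.9 CPM, a mean of 33.4 ± 16.9 CPM (n = 5). The naïve aged value was higher in 22 of 25 pairs of samples, and the highest 2 adult lungs overlapped the aged range. The log2 fold change for aged vs. adult was 1.03 ± 0.32, the largest of the 8 members in that comparison, with an adjusted p of 0.198 by limma, and it was 0.82 after rescaling (adjusted p = 0.249). Among females alone it was 1.51 (adjusted p = 0.163). No member passed in aged vs. adult by limma (1, Cdkn1a itself, at an unadjusted p under 0.05), where 0.654% of all genes did. Over the 24 samples, the genes whose values ran most like those of Cdkn1a were Ube2g2 (Pearson r = 0.739) and Fam78b (r = 0.737).

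Cdkn2a encodes the CDK inhibitor p16Ink4a and the Mdm2 antagonist p19Arf from shared exons in different reading frames, and the table gives 1 value for both. Naïve aged lungs held 0.353, 0.350, 0.387, 0.352 and 0.495 CPM, a mean of 0.387 ± 0.0620 CPM (n = 5). HDM lungs ran from 0.912 over a median of 1.18 to 2.09 CPM, a mean of 1.29 ± 0.444 CPM (n = 7). Every HDM sample lay above every naïve aged one, in 35 of 35 pairs, and the mean was 3.33 times that of saline. By an exact two-sided permutation test the difference in mean log2(CPM + 1) was 0.70 ± 0.10 (SE, p = 0.00253), the smallest p that the 792 splits can give, or 0.0101 adjusted over the 4 comparisons of Cdkn2a. Of all 23891 genes, 0.866% lay wholly above saline in the HDM samples.

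The mean of Cdkn2a over all samples was 0.842 CPM, below the 1 CPM set for limma, which is why it was tested alone. These are few reads, an estimated 5 to 10 per naïve aged sample and 12 to 33 per HDM sample. With no filter, limma gave Cdkn2a a log2 fold change of 0.70 with an adjusted p of 0.0230, where 3.09% of all genes were called higher. After rescaling the difference was 0.80, with 35 of 35 pairs higher in HDM. Among the samples under 25% 7SL RNA, which left 2 HDM and 5 naïve aged lungs, it was 0.50 (exact permutation p = 0.0952, the smallest that 21 splits allow). Both of these HDM lungs were female.

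HDM + Dex lungs were spread over the whole range of Cdkn2a, from 0.0773 over a median of 0.835 to 2.47 CPM, at a mean of 1.11 ± 0.788 CPM (n = 7). HDM + Dex replicate 3, at 0.0773 CPM, was at the level of 2 reads and below every naïve aged sample, and the other 6 were above them all. The difference from HDM was -0.18 ± 0.23 in log2(CPM + 1) (exact permutation p = 0.463). The difference from saline was 0.52 ± 0.21 (exact permutation p = 0.0606, 0.121 adjusted over the 4 comparisons), higher in 30 of 35 pairs. Without HDM + Dex replicate 3, the 1 sample below the naïve aged range, it was 0.67. The groups then no longer overlapped, so the p of 0.00433 (exact permutation, unadjusted) is the smallest that the splits allow. Since the sample was picked for its value, this p followed from the choice and is no support for a difference. Naïve adult lungs held 0.0808, 0.692, 0.205, 0.270 and 0.215 CPM, a mean of 0.293 ± 0.234 CPM (n = 5), 4 of them below every naïve aged value and replicate 2 above them all. Aged vs. adult was 0.12 ± 0.11 (exact permutation p = 0.357). Without naïve adult replicate 2, the 1 adult sample above the aged values, it was 0.22. Here too the groups no longer overlapped, and the p of 0.0159 (exact permutation, unadjusted) is the smallest that the splits allow. It likewise followed from the choice of sample and is no support for a difference. Naïve adult samples held an estimated 1 to 14 reads of Cdkn2a.

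**Figure D2:**
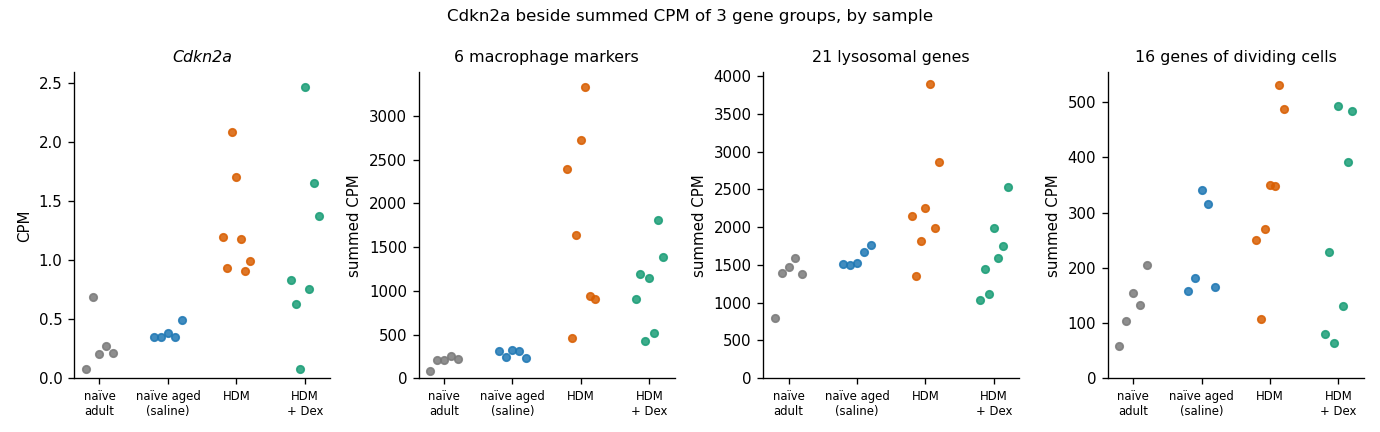
CPM of Cdkn2a and summed CPM of 6 macrophage markers, 21 lysosomal genes and 16 genes of dividing cells (vertical axes, each from 0) by sample, 1 point per lung, in the 4 groups. HDM lungs do not overlap naïve aged ones for Cdkn2a or the macrophage markers, and do overlap for the other sums.

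Summed macrophage markers, like Cdkn2a, were higher in every HDM sample than in every naïve aged one. Within the HDM group their highest samples differed. Replicate 5 had the highest marker sum, 3336 CPM, with Cdkn2a at 1.18 CPM, and replicate 3 the highest Cdkn2a, 2.09 CPM, with a sum of 1640 CPM. All 6 markers were detected in each group, 3 were called higher in HDM vs. saline, beside 4.04% of all genes, and none lower, and the median of their log2 fold changes was 1.21. Their sums of 226 to 328 CPM in naïve aged and 462 to 3336 CPM in HDM lungs did not overlap. Most of the HDM sum was 1 marker, Chil3, a chitinase-like gene. It had a mean of 1393.5 CPM, where the mean sum was 1771 CPM, against 134 and 284 CPM in naïve aged lungs. Summed CPM of 16 genes of dividing cells overlapped, at 159 to 341 in naïve aged and 108 to 530 in HDM lungs. In the same comparison 1 of these 16 passed, Mcm2, a helicase subunit loaded before replication, at a log2 fold change of 0.67 (limma, adjusted p = 0.0426). Mcm2 was kept in 10 of 19 omissions of 1 library, in which 0 to 4 of the 16 were called, and 3 of them passed after rescaling. The part of these cells in the Cdkn2a difference was not tested.

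Cdkn2b, the neighbour of Cdkn2a, encodes p15Ink4b, a CDK inhibitor that TGF-β induces, and its groups overlapped throughout. The means were 14.6 ± 2.69 CPM in HDM lungs, 12.7 ± 2.18 in those of HDM + Dex, 15.9 ± 2.97 in naïve aged and 16.4 ± 6.06 CPM in naïve adult lungs. HDM vs. saline was a log2 fold change of -0.12 ± 0.16 (limma, adjusted p = 0.619), and 0.12 after rescaling. Aged vs. adult was 0.01 ± 0.23 (adjusted p = 0.989), and -0.19 after rescaling. The HDM + Dex group had the lowest mean, at -0.30 ± 0.16 against saline (adjusted p = 0.280). Across the 24 samples Cdkn2b and Cdkn2a had a Pearson r of -0.04, over samples that share their groups.

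Other genes of the CDK and retinoblastoma axis were called in HDM vs. saline at shares near those of all genes as deposited. After rescaling a larger share of them than of all genes was called higher. Of 18 tested, 1 was called higher and 3 lower, beside 4.04% and 21.2% of all genes (5 and 2 after rescaling, beside 10.9% and 11.6%), and the median of their log2 fold changes was 0.03 against -0.23 over all genes. Cdkn1c, the p57 inhibitor of the Cdkn1a family, was at 25.8 ± 6.07 CPM in naïve aged and at 8.93 ± 3.06 CPM in HDM lungs, a log2 fold change of -1.46 ± 0.25 (limma, adjusted p = 0.000629) that was -1.22 after rescaling. Naïve aged lungs held 16.2 to 31.8 CPM of it and HDM lungs 5.27 to 14.5 CPM, so that the groups did not overlap, as for 7.69% of all genes, which were wholly lower in HDM. Cdkn1b (p27), of the same family, fell by 0.68 (adjusted p = 0.0114), and E2f3, a transcription factor held by the retinoblastoma protein, rose by 0.76 (adjusted p = 0.00305), both on the log2 scale. Cdkn1c was the 1 gene of the 18 that passed in HDM + Dex vs. saline, where 1.44% of all genes were lower. It was at -1.14 ± 0.25 (adjusted p = 0.0249), a call kept in 13 of 19 omissions of 1 library. Polycomb proteins keep the Cdkn2a locus silent, and of 10 tested, 3 were called lower in HDM vs. saline, beside 21.2% of all genes, Bmi1 at -0.55 (adjusted p = 0.0257) and Ezh1 at -0.45 (adjusted p = 0.0267) among them, but none was called after rescaling.

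Trp53 encodes p53 itself, whose activity is set mainly by protein stability rather than by its transcript. Naïve aged lungs held 11.3, 10.1, 14.8, 13.2 and 15.7 CPM, a mean of 13.0 ± 2.35 CPM (n = 5). HDM lungs ran from 10.2 over a median of 15.9 to 21.5 CPM, a mean of 15.9 ± 3.92 CPM (n = 7), and the groups overlapped. The log2 fold change was 0.25 ± 0.20 (limma, adjusted p = 0.353), and after rescaling it was 0.49 ± 0.16 (adjusted p = 0.0296), higher in 31 of 35 pairs. After rescaling, 10.9% of all genes were called higher and 11.6% lower. HDM + Dex lungs, at 13.4 ± 3.72 CPM, differed from HDM by -0.24 ± 0.18 (adjusted p = 0.626). Naïve adult lungs held 13.1 ± 2.63 CPM, and aged vs. adult was -0.00 ± 0.19 (adjusted p = 0.992).

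Mdm2, the ligase that marks p53 for degradation and is itself induced by p53, was called in none of the 4 comparisons by limma. Its means were 69.9 ± 7.85 CPM in HDM lungs, 68.1 ± 10.7 in those of HDM + Dex, 82.5 ± 6.67 in naïve aged and 67.5 ± 13.5 CPM in naïve adult lungs. HDM vs. saline was a log2 fold change of -0.24 ± 0.12 (adjusted p = 0.141) as deposited and 0.01 ± 0.08 after rescaling (adjusted p = 0.924). Its level had a Pearson r of -0.854 with the 7SL share over the 24 samples, the strongest of the 8 tested members. HDM + Dex vs. saline was -0.28 ± 0.12 (adjusted p = 0.186). Mdm2 passed there with sex as a covariate (adjusted p = 0.0494) and with sample quality weights (adjusted p = 0.0188). With these weights 5471 of all genes were called in that comparison, against 335 in the main fit. Of 15 other regulators of p53, 3 were called lower in HDM vs. saline, where 21.2% of all genes were, and none after rescaling. Among the 3 were Usp7, a deubiquitinase of Mdm2 and p53, at -0.42 (adjusted p = 0.0284), and Trp53bp1, which binds DNA breaks, at -0.49 (adjusted p = 0.0296), calls kept in 14 and 12 of 19 omissions of 1 library.

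Ccng1, cyclin G1, a p53 target that recruits a phosphatase to Mdm2, was likewise called in none of the comparisons by limma. Its means were 73.7 ± 14.1 CPM in HDM lungs, 68.5 ± 28.1 in those of HDM + Dex, 78.2 ± 15.1 in naïve aged and 59.1 ± 19.3 CPM in naïve adult lungs. HDM vs. saline was a log2 fold change of -0.08 ± 0.21 (adjusted p = 0.785), and 0.17 after rescaling. Aged vs. adult was 0.46 ± 0.25 (adjusted p = 0.498). HDM + Dex vs. saline was -0.26 ± 0.21 (adjusted p = 0.453), and -0.47 (adjusted p = 0.0375) with sample quality weights. Under that setting 5471 of all genes were called in the comparison, against 335 in the main fit. Mdm2 and Ccng1 had the highest correlation among the members, with a Pearson r of 0.741 over the 24 samples, and Ccng1 had an r of -0.712 with the 7SL share of those samples.

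**Figure D3:**
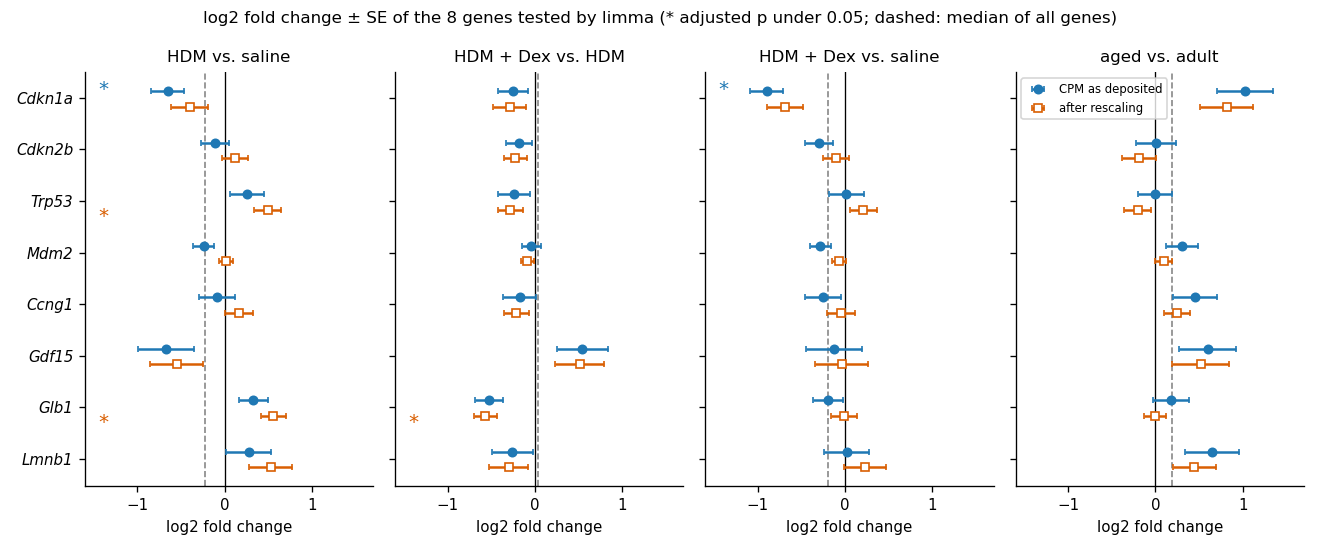
log2 fold change ± SE (horizontal axes) of the 8 members tested by limma in 4 comparisons, from CPM as deposited (filled circles) and after median-of-ratios rescaling (open squares). Cdkn1a passed in HDM vs. saline and HDM + Dex vs. saline as deposited, and Glb1 and Trp53 in HDM vs. saline and Glb1 in HDM + Dex vs. HDM after rescaling, as the stars mark.

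Beyond the members, 31 further target genes of p53 were tested. In HDM vs. saline 1 was called higher and 11 lower, and the median of their log2 fold changes was -0.32, beside 4.04% and 21.2% of all genes and a median of -0.23. After rescaling the split was 8 higher and 9 lower, beside 10.9% and 11.6% of all genes, with a median of -0.07 against -0.01 over all genes. Perp, a desmosome protein and p53 effector in cell death, was at 14.9 ± 3.21 CPM in naïve aged and 6.26 ± 1.64 CPM in HDM lungs, a log2 fold change of -1.14 ± 0.18 (limma, adjusted p = 0.000509). Lung epithelium markers (8 genes) had lower sums in the same lungs, of 9991 to 17494 CPM in naïve aged and 4256 to 8981 CPM in HDM, with 4 called lower as deposited and 2 after rescaling. Most of that fall was 1 marker, Scgb1a1, from a mean of 4635 to 1046 CPM, where the mean sum went from 12732 to 7459 CPM. Of 4 endothelium markers 3 were called lower as deposited, and 1 lower and 1 higher after rescaling. For both lists, 21.2% of all genes were lower as deposited, and 11.6% lower and 10.9% higher after rescaling. The endothelium sums overlapped, at 1518 to 1849 CPM in naïve aged and 1200 to 1922 CPM in HDM lungs. The part of these cell types in the p53 target values was not tested. Sesn1, a sestrin that restrains mTORC1, fell by 0.69 (adjusted p = 0.00163), from 33.8 ± 6.91 to 20.4 ± 2.58 CPM. Cgref1, a growth regulator, was the 1 that rose, by 0.66 (adjusted p = 0.0218). Bax and Bbc3, which drive cell death at the mitochondrion, were chosen after their values were seen, and they passed after rescaling, at 0.68 (adjusted p = 0.00424) and 0.54 (adjusted p = 0.0188), against 0.45 and 0.32 as deposited (adjusted p = 0.0885 and 0.148).

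None of the 31 targets passed by limma in HDM + Dex vs. HDM (3 at an unadjusted p under 0.05), where 0.964% of all genes did, and 1 passed after rescaling. Against saline, HDM + Dex lungs had 4 lower, beside 1.44% of all genes, and none higher, and none of either after rescaling. Sesn1 was at -0.65 (adjusted p = 0.0211) and Btg2, an antiproliferative cofactor, at -0.80 (adjusted p = 0.0302), calls kept in 14 and 11 of 19 omissions of 1 library. In aged vs. adult, where 0.654% of all genes were called, 1 target passed, Trp53inp1, a cofactor of p53 in stress and autophagy. It was at 64.8 ± 19.5 CPM in naïve adult and at 154 ± 47.4 CPM in naïve aged lungs, with ranges of 32.1 to 81.0 and 103 to 212 CPM that did not overlap, where 2.91% of all genes lay wholly higher. The log2 fold change was 1.25 ± 0.27 (adjusted p = 0.0366), 1.04 after rescaling (adjusted p = 0.0151) and 1.71 among females alone (adjusted p = 0.0395). With 1 library left out it ran from 1.02 to 1.38 and passed in 4 of 10 omissions, losing the call without replicate 2, 3 or 4 of either group, and it was also not called with no filter or with the 7SL covariate.

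**Figure D4:**
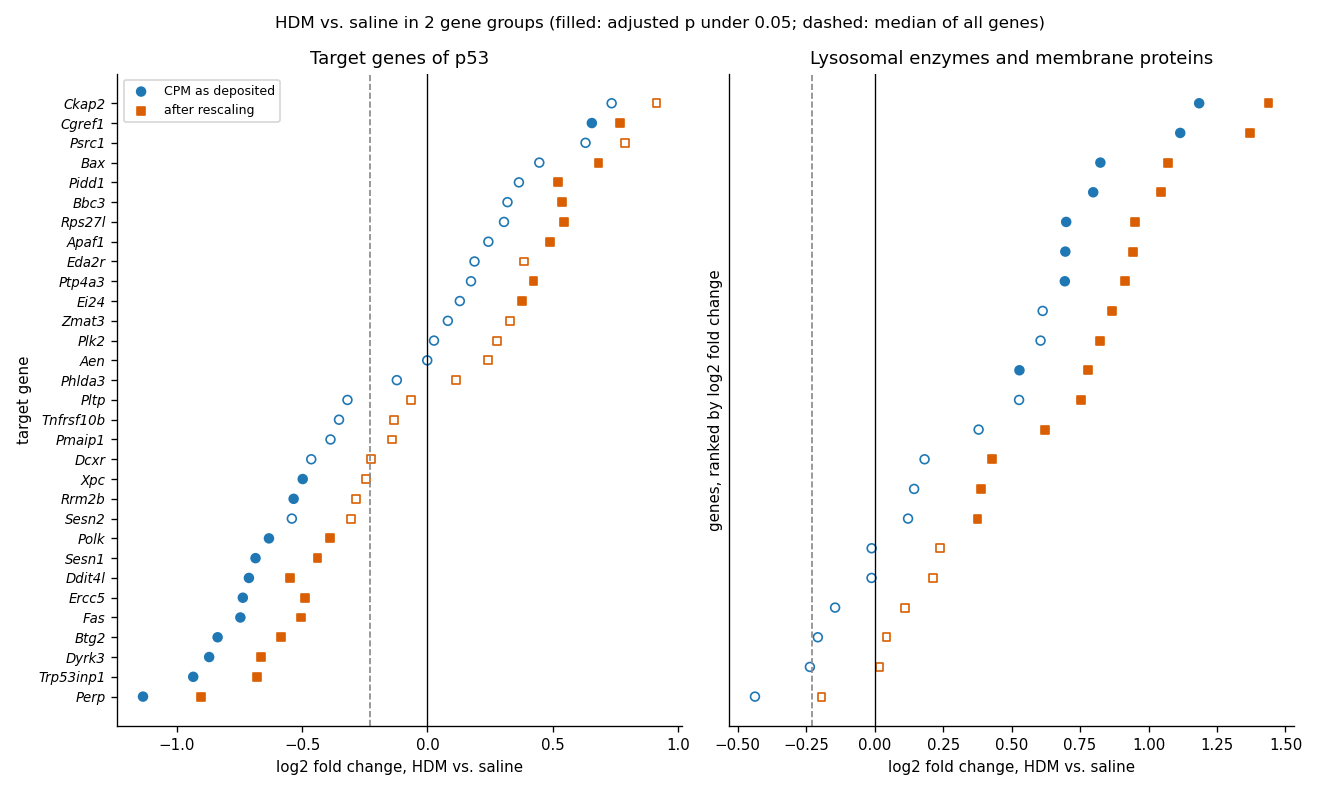
log2 fold change for HDM vs. saline (horizontal axes) of 31 target genes of p53 and 21 lysosomal genes other than Glb1, each group ranked by its deposited value, as deposited (circles) and after rescaling (squares), filled where the adjusted p was under 0.05. The p53 targets fall on both sides of 0, from Perp at -1.14 upward, and the 8 lysosomal genes that passed as deposited are all higher.

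Gdf15 encodes a secreted factor of the TGF-β family that p53 and the integrated stress response induce, and it was scarce and varied, from 0.242 to 4.46 CPM over the 24 samples. Its means were 0.754 ± 0.415 CPM in HDM lungs, 1.82 ± 1.57 in those of HDM + Dex, 1.99 ± 1.46 in naïve aged and 0.952 ± 0.977 CPM in naïve adult lungs. HDM vs. saline gave a log2 fold change of -0.67 ± 0.32 (limma, adjusted p = 0.127), lower in 31 of 35 pairs. It was -0.55 after rescaling (adjusted p = 0.199) and -0.15 with the 7SL share as a covariate (adjusted p = 0.838). Without the samples above 25% 7SL RNA it was -0.41 (adjusted p = 0.648). HDM + Dex vs. HDM gave 0.54 ± 0.30 (adjusted p = 0.446), and aged vs. adult 0.60 ± 0.33 (adjusted p = 0.499). Of 13 genes of the integrated stress response, 4 were called lower in HDM vs. saline and none higher, beside 21.2% and 4.04% of all genes (2 lower after rescaling, beside 11.6%), with Vldlr, a lipoprotein receptor, at -1.37 (adjusted p = 0.00315) and Atf4, the central transcription factor of the response, at -0.61 (adjusted p = 0.00594). In HDM + Dex vs. saline 3 were called lower, beside 1.44% of all genes, and none after rescaling. Ppp1r15a, a phosphatase subunit that ends the response, was at -0.77 (adjusted p = 0.0386) and Ddit4, an inhibitor of mTORC1, at -1.05 (adjusted p = 0.0412). These calls were kept in 12 and 10 of 19 omissions of 1 library.

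Glb1 encodes the lysosomal β-galactosidase whose activity is the customary stain for senescent cells. Naïve aged lungs held 6.97, 7.40, 8.32, 7.53 and 7.0 CPM, a mean of 7.44 ± 0.544 CPM (n = 5). HDM lungs ran from 8.05 over a median of 9.25 to 14.2 CPM, a mean of 9.74 ± 2.09 CPM (n = 7). HDM + Dex lungs ran from 4.53 over 6.14 to 9.46 CPM, a mean of 6.55 ± 1.85 CPM (n = 7). HDM was higher than saline in 33 of 35 pairs, and HDM + Dex lower than HDM in 45 of 49. HDM vs. saline was a log2 fold change of 0.33 ± 0.17 (limma, adjusted p = 0.157), and HDM + Dex vs. HDM -0.52 ± 0.16 (adjusted p = 0.105), so that neither passed on the deposited scale.

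After rescaling Glb1 passed in both. HDM vs. saline was a log2 fold change of 0.56 ± 0.15 (limma, adjusted p = 0.00974), with 35 of 35 pairs higher, where 10.9% of all genes were called higher. HDM + Dex vs. HDM was -0.57 ± 0.13 (adjusted p = 0.0253), with 49 of 49 pairs lower, where 0.862% of all genes were called lower. It was also called in HDM + Dex vs. HDM with sample quality weights (adjusted p = 0.0298) and in both comparisons with the 7SL share as a covariate (adjusted p = 0.0396 and 0.0228). Without the samples above 25% 7SL RNA it passed in neither, at 0.32 in HDM vs. saline (adjusted p = 0.299) and at -0.17 in HDM + Dex vs. HDM (adjusted p = 0.821). That omission left 2 HDM lungs, and only females in the HDM and HDM + Dex groups. HDM + Dex lungs did not pass against saline, at -0.20 as deposited and -0.01 after rescaling (adjusted p = 0.491 and 0.973), and aged vs. adult was 0.18 and -0.00 (adjusted p = 0.707 and 0.993). Tmppe, annotated on the same strand, overlaps Glb1 at chr9:114401076-114474898, so that reads of the pair may be split between them. Over the 24 samples the genes most like Glb1 were Cln8 (Pearson r = 0.921) and Rab7b (r = 0.904).

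Other lysosomal genes were called higher in HDM lungs as well. Of 21 tested, 8 were higher and none lower in HDM vs. saline, beside 4.04% and 21.2% of all genes (15 and none after rescaling, beside 10.9% and 11.6%), and the median of their log2 fold changes was 0.53 against -0.23 over all genes. Gusb, β-glucuronidase, rose by 0.82 ± 0.20 on the log2 scale (limma, adjusted p = 0.00537). None of the 21 passed by limma in HDM + Dex vs. HDM, with or without rescaling (10 at an unadjusted p under 0.05), and the median was -0.44. Up to 4 were called there under the other settings, and up to 6 with 1 library left out. Macrophages are rich in lysosomes, and the sum of their 6 markers was 462 to 3336 CPM in HDM lungs, 426 to 1814 with Dex and 226 to 328 CPM in naïve aged lungs. Chil3 alone had means of 1393.5, 800.5 and 134 CPM in these groups. The part of macrophages in the values of Glb1 and the other lysosomal genes was not tested.

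Lmnb1 encodes lamin B1, whose loss marks senescent nuclei, and it was called in none of the comparisons by limma. Its means were 60.8 ± 18.9 CPM in HDM lungs, 50.8 ± 16.7 in those of HDM + Dex, 51.2 ± 23.9 in naïve aged and 32.5 ± 12.9 CPM in naïve adult lungs. HDM vs. saline was a log2 fold change of 0.28 ± 0.26 (adjusted p = 0.441), and 0.53 after rescaling (adjusted p = 0.123). Aged vs. adult was 0.65 ± 0.31 (adjusted p = 0.445), with the aged value higher in 21 of 25 pairs. Over the 24 samples Lmnb1 ran most like Atad2 (Pearson r = 0.911), a chromatin ATPase, and Baz1a (r = 0.903), a chromatin remodelling subunit. Of 12 other genes of the lamina and its linkers, 4 were called lower in HDM vs. saline and none higher, beside 21.2% and 4.04% of all genes (3 lower and 1 higher after rescaling, beside 11.6% and 10.9%), among them the nesprins Syne1 at -0.89 (adjusted p = 0.00106) and Syne2 at -0.82 (adjusted p = 0.0018).

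Of secreted factors linked to senescence, many of which inflamed lung also makes, 30 were tested. In HDM vs. saline 12 were called higher and 4 lower, beside 4.04% and 21.2% of all genes (14 and 4 after rescaling, beside 10.9% and 11.6%), and the median of their log2 fold changes was 0.48 against -0.23 over all genes. Mmp12, the macrophage elastase, rose by 5.18 ± 0.64 on the log2 scale (limma, adjusted p = 8.9e-05) from 4.58 ± 2.99 to 282 ± 234 CPM, and Col1a1, a collagen chain, by 1.58 ± 0.18 (adjusted p = 4.5e-05). Fgf2, a fibroblast growth factor, fell by 0.75 (adjusted p = 0.000883) and Igfbp3, which binds insulin-like growth factors, by 1.30 (adjusted p = 0.00473). Col1a1 was the 1 gene of the 30 that was called in HDM + Dex vs. HDM, at -0.85 ± 0.17 (adjusted p = 0.0270), where 0.964% of all genes were. It was kept in 11 of 19 omissions of 1 library, in which 0 to 6 of the 30 were called, and 3 of the 30 were lower after rescaling. Mmp12 and Col1a1 were higher in HDM + Dex vs. saline, at 3.51 and 0.73 (adjusted p = 0.00903 and 0.0426), kept in 19 and in 9 of 19 omissions. In aged vs. adult the chemokines Ccl8 and Cxcl10 rose by 1.93 and 1.11 (adjusted p = 0.0120 and 0.0311), the second not passing after rescaling and passing in 1 of 10 omissions of 1 library, and Col1a1 fell by 1.42 (adjusted p = 0.00147). These 2 higher and 1 lower were the calls among the 30, beside 0.654% of all genes called in either direction.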

How the data were processed

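Total RNA from the left lung lobe of 24 mice was made into stranded mRNA libraries and sequenced as paired-end reads. The authors deposited 1 table of CPM, in which every sample has been scaled to 1 common total of reads and a constant of 0.0001 is added. Their methods name STAR and limma, and the submitters' processing notes also name FastQC, DESeq2 and mm9. The gene coordinates of the table are nevertheless those of GRCm38: of 23276 symbols found in its GENCODE annotation, 99.3% had the same start. Of the low values, 80.4% to 84.8% were whole multiples (within 0.05) of what 1 read is worth, so counts were not recovered, and the depth of 10.1 to 33.1 M reads is an estimate that covers counting error only.

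Groups followed the labels. Log2(CPM + 1) was fitted for 17744 genes, those whose mean reached 1 CPM, with limma 3.58.1 in R 4.3.3, with eBayes (trend) and Benjamini-Hochberg adjustment over all of them at 0.05. The 19 aged samples shared 1 fit, which gave the 3 comparisons of HDM and Dex, and the 10 naïve samples had their own for aged vs. adult. A fold change on this scale understates that of low genes. Cdkn2a, below the filter, was tested by exact permutation of log2(CPM + 1), unlike the rest, with Python 3.11.15 and scipy 1.17.1. Replicates are separate mice by their labels.

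The 9 genes, the gene lists and the tests were chosen with earlier results of these data known. Genes were named from among the 9 members, from each list the up to 2 genes per direction with the smallest adjusted p in a comparison, the 2 genes most correlated with each member, and Bax and Bbc3, chosen after their values were seen. On data simulated for HDM vs. saline with 17744 genes, 71 of 100 genes changed by 1 on the log2 scale and 97 of 100 changed by 2 were recovered, with 6 false calls. For aged vs. adult these were 51, 93 and 5. The changed genes were drawn from those with a mean log2(CPM + 1) above 2, so recovery of lower genes such as Gdf15 was not tested. In the lung samples 4482 genes were called in HDM vs. saline, and recovery with that many changed genes was not tested. Alternatives covered the pseudocount, filter, scaling, samples in the fit, sex, sample weights, 7SL share, a replicate block and leaving out each replicate. The value of 1 lysosomal gene that this rule names is not reported here. Promoter sequence of Lmnb1 was not used here.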

Additional observations from a re-analysis of the deposited data

Results flagged for a closer look

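The highest or lowest sample stood apart from the others of its group, by Dixon's criterion at the 95% level, in 3 of 36 groups of values for the 9 genes, where chance gives about 1 in 20, or 1.8. Cdkn2a was at 0.495 CPM in naïve aged replicate 5 and at 0.350 to 0.387 CPM in the other 4, which is a difference of a few reads, and all 7 HDM samples lay above it. Cdkn2b was at 8.44 CPM in HDM + Dex replicate 1 and at 11.8 to 14.6 CPM in the other 6. Glb1 was at 14.2 CPM in HDM replicate 5 and at 8.05 to 9.95 CPM in the other 6, and no library left out in turn brought the adjusted p of Glb1 in HDM vs. saline under 0.05 by limma (range 0.128 to 0.2997).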

How the results depend on the processing

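Of the 8 genes tested by limma, 1 passed in HDM vs. saline, 0 in HDM + Dex vs. HDM, 1 in HDM + Dex vs. saline and 0 in aged vs. adult. In HDM vs. saline the count became 2 with no filter (Cdkn2a added), 2 after median-of-ratios rescaling and 2 with the 7SL share as a covariate (Glb1 and Trp53 in place of Cdkn1a), and 0 without the samples over 25% 7SL RNA. In HDM + Dex vs. HDM it became 1, Glb1, after rescaling, with sample quality weights and with the 7SL covariate. In HDM + Dex vs. saline it became 0 after rescaling, with the 7SL covariate and without the samples over 25% 7SL RNA. It became 2 with sex as a covariate (Mdm2 added) and 3 with sample quality weights (Mdm2 and Ccng1 added). With these weights 5471 of the 17744 genes tested were called in that comparison, against 335 in the main fit. The added calls therefore do not set the members apart from all genes. The 7SL covariate and the omission of the samples over 25% were chosen after seeing the data. The omission also removes every male of the HDM and HDM + Dex groups. Leaving out each replicate gave counts of 0 to 1, 0 to 0, 0 to 1 and 0 to 0. Why these calls changed was not tested.

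The replicate numbers did not pair the samples: deviations of same-numbered samples correlated at -0.0842 to 0.302 in HDM vs. saline, -0.238 to 0.407 in HDM + Dex vs. HDM, -0.225 to 0.0230 in HDM + Dex vs. saline and -0.230 to 0.0521 in aged vs. adult. With the replicate number as a block, Cdkn1a was called in aged vs. adult (adjusted p = 0.0341, limma), a count of 1, and in HDM + Dex vs. saline the log2 fold changes of Lmnb1 and Trp53 were -0.17 and -0.11, uncalled and opposite in sign. The calls of the members were otherwise as without the block.

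For Cdkn2a, leaving out each replicate gave differences of 0.63 to 0.74 in HDM vs. saline, -0.31 to -0.03 in HDM + Dex vs. HDM, 0.39 to 0.67 in HDM + Dex vs. saline and 0.0577 to 0.22 in aged vs. adult. Without the samples over 25% 7SL RNA they were 0.50 (exact permutation p = 0.0952) in HDM vs. saline, 0.32 (p = 0.6, exact) in HDM + Dex vs. HDM, opposite in sign, and 0.81 (p = 0.0357, exact) in HDM + Dex vs. saline. HDM + Dex vs. saline was 0.57 after rescaling (exact permutation p = 0.0278) and 0.727 CPM on the CPM scale (exact permutation p = 0.0429). The p-values of this paragraph are not adjusted over the 4 comparisons of Cdkn2a, so none of them is a call.

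Signs turned for uncalled members. In HDM vs. saline, Cdkn2b was at 0.12, Mdm2 at 0.0133 and Ccng1 at 0.17 after rescaling, at 0.0852, 0.0351 and 0.46 with the 7SL covariate, and Cdkn2b at 0.11 and Ccng1 at 0.0644 without the samples over 25%, where HDM + Dex vs. HDM gave Mdm2 0.0310 and Ccng1 0.16. In HDM + Dex vs. saline, Lmnb1 was at -0.0832 and Trp53 at -0.0643 with sex as a covariate, and Trp53 at -0.0501 with quality weights. Gdf15, Glb1 and Ccng1 were at 0.28, 0.0296 and 0.17 with the 7SL covariate and at 0.37, 0.15 and 0.22 without the samples over 25%. In aged vs. adult, Cdkn2b was at -0.00148 with a pseudocount of 5, -0.19 after rescaling, -0.28 in females, -0.20 with quality weights, -0.16 with the 7SL covariate and -0.11 without the sample over 25%. Glb1 was at -0.00373, -0.00162 and -0.0789 after rescaling, with quality weights and with the 7SL covariate, and Trp53 at 0.11 in females. Leaving out each replicate moved Ccng1 from -0.16 to 0.00416 in HDM vs. saline, Gdf15 from -0.36 to 0.11, Lmnb1 from -0.0983 to 0.25 and Trp53 from -0.0674 to 0.11 in HDM + Dex vs. saline, and Cdkn2b from -0.11 to 0.16 and Trp53 from -0.0724 to 0.0759 in aged vs. adult.

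Over all genes, 4482 were called in HDM vs. saline (1072 to 7876 over the alternatives), 171 in HDM + Dex vs. HDM (1 to 611), 335 in HDM + Dex vs. saline (28 to 5471) and 116 in aged vs. adult (65 to 784), the highest with sample quality weights. Of the p53 targets, 5 to 18 were called in HDM vs. saline, 0 to 1 in HDM + Dex vs. HDM, 0 to 14 in HDM + Dex vs. saline and 0 to 3 in aged vs. adult. Of the lysosomal genes, 6 to 15 were called in HDM vs. saline. Depth limits Cdkn2a and Gdf15 most, since 3 reads are 0.0906 to 0.299 CPM.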

Other observations

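Markers of several cell types differed between the groups beside the members. Ciliated cell markers (5 genes) summed to 209 to 325 CPM in naïve aged, 43.0 to 191 CPM in HDM and 126 to 307 CPM in HDM + Dex lungs. All 5 were called lower in HDM vs. saline, beside 21.2% of all genes, and 3 were called higher by limma in HDM + Dex vs. HDM, where 0.964% of all genes were called. With 1 library left out, the second count ran from 0 to 5 and was about the same in 10 of 19 omissions. With age, neutrophil markers (5 genes) summed to 12.5 to 48.8 CPM in naïve adult and 65.5 to 194 CPM in naïve aged lungs, with 4 of the 4 tested called higher, beside 0.654% of all genes called in either direction. B and plasma cell markers (6 genes) summed to 57.3 to 158 CPM and 216 to 803 CPM in the same groups, with 2 called higher. Neither sum overlapped between the ages.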
